A study of Homo sapiens with 6 samples.

Results

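The cluster examined is a run of microRNA (miRNA) genes inside CLCN5, the X-chromosome gene for the chloride/proton exchanger ClC-5. It was followed by 8 mature miRNAs of 2588 counted in each library: hsa-miR-532-5p, hsa-miR-532-3p, hsa-miR-362-5p, hsa-miR-362-3p, hsa-miR-500a-3p, hsa-miR-501-3p, hsa-miR-502-3p and hsa-miR-660-5p. These names were chosen by their place in the cluster with the read counts of the same libraries already known, so the counts are given as a description and no test is attached to them. Small RNA was sequenced from 2 wild-type human cell lines of the airways: A549, derived from a lung adenocarcinoma, and BEAS-2B, bronchial epithelium made immortal with a viral gene. Over 48 h, cultures were left untreated (control) or were exposed to TGF-β1 at a dose of 1 or 5 ng/mL, which gave 6 groups of 1 library. TGF-β1 is a growth factor under which epithelial cells take on mesenchymal, matrix-producing traits. Whether a difference exceeds the spread between replicates could not be judged with 1 library per group, and all intervals below are 95% intervals for counting error only.

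A miRNA is cut from a hairpin in a longer transcript, and either arm of the hairpin, called 5p or 3p, can be loaded into the silencing complex. The loaded arm finds its target messenger RNAs mainly through the seed, bases 2 to 8 from its 5′ end, and lowers their translation and stability. miRNAs encoded in an intron can be produced from the host gene's transcript, and neighbouring hairpins can come from 1 shared precursor, although each mature arm is then cut, loaded and degraded separately.

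In GENCODE release 29 on GRCh38, CLCN5 spans X:49922615-50099235 on the plus strand and has 9 transcripts. The cluster holds 8 hairpins on the same strand between X:50003148 and X:50014683, a stretch of 11536 bp. All 8 hairpins lie in an intron of 3 of the CLCN5 transcripts, and they overlap 0 exons. miR-532 and miR-188 are 355 bp apart by their starts, miR-500a, miR-362, miR-501 and miR-500b follow from 5283 to 7524 bp after the start of miR-532, and miR-660 and miR-502 lie at 10093 and 11450 bp. The reads were very unevenly spread along this stretch. Both arms of miR-532 together held 1034 reads over the 6 libraries, miR-502 held 370, miR-500a 299, miR-501 121, miR-362 120 and miR-660 76. miR-188 held 3 reads and miR-500b was given 1. The hairpins of miR-500a and miR-500b share a run of 37 bases that contains both of their 5p arms. The 36 reads given to miR-500a-5p therefore cannot be placed in 1 of these hairpins by sequence.

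**Figure D1:**
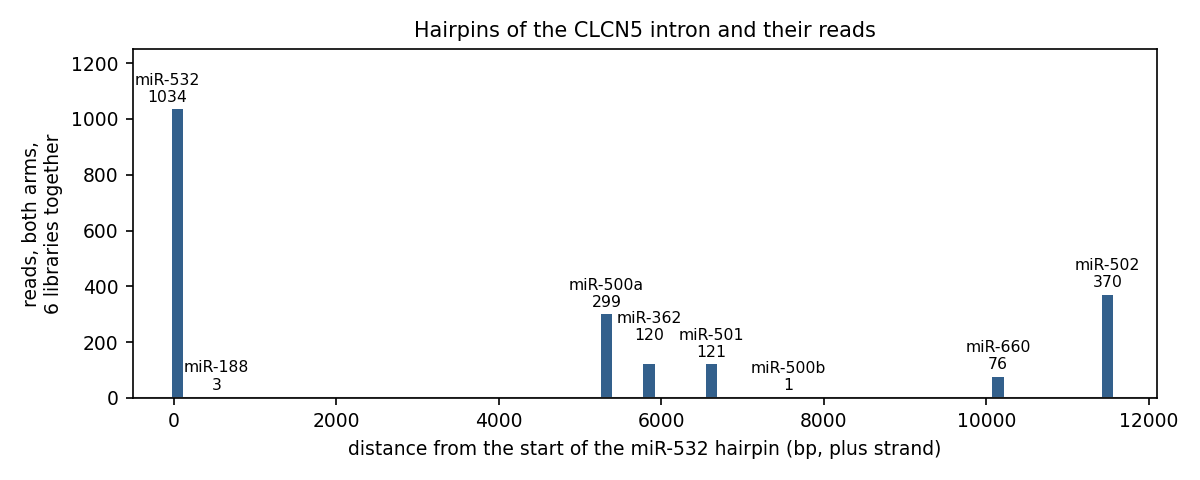
Reads of each hairpin in the CLCN5 intron, both arms and 6 libraries together (vertical axis), against the distance of the hairpin from the start of miR-532 in bp (horizontal axis). The first hairpin, miR-532, held 1034 reads and the last, miR-502, held 370, while miR-188 and miR-500b, which lie between them, held 3 and 1.

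Mature sequences from RefSeq (GRCh38.p14) were matched for 7 of the 8 names and are shown because seeds and near-identical arms decide which reads can be told apart. Capitals mark the seed.
hsa-miR-532-5p: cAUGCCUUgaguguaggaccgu
hsa-miR-532-3p: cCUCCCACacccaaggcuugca
hsa-miR-362-5p: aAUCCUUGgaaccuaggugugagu
hsa-miR-362-3p: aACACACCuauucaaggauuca
hsa-miR-500a-3p: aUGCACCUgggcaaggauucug
hsa-miR-501-3p: aAUGCACCcgggcaaggauucu
hsa-miR-502-3p: aAUGCACCugggcaaggauuca

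The last 3 sequences form a near-identical family. hsa-miR-501-3p and hsa-miR-502-3p share the seed AUGCACC and are identical at 20 of 22 positions, with the substitutions C9U and U22A, counted from the 5′ end and written with the base of hsa-miR-501-3p first. hsa-miR-500a-3p begins 1 base later, so its seed is UGCACCU. Aligned with that offset, it matches hsa-miR-501-3p at 20 of 21 positions (U8C, in the numbering of hsa-miR-500a-3p) and hsa-miR-502-3p at 20 of 21 (U21A). A read of the shared 20-base run augcaccugggcaaggauuc carries no base that separates hsa-miR-500a-3p from hsa-miR-502-3p. How such reads were assigned is not given in the sources used here, so the split among these 3 arms is uncertain and their sum is given as well. By seed, hsa-miR-362-5p (AUCCUUG) shared its seed with hsa-miR-500b-5p of the same cluster, which had a count of 0, and hsa-miR-362-3p shared ACACACC with miR-329-3p, which lies outside the cluster.

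Total counts ranged from 633318 to 900424 per library, and from 902 to 1031 of the miRNAs had a read. miR-21-5p alone took from 35.4% to 57.2% of a library, with the lowest share in the BEAS-2B control. Counts were therefore scaled by TMM, a trimmed mean that sets the scale between libraries from the bulk of miRNAs and not from the most abundant, and the scaled values are called normalised counts. A normalised count is relative to the other miRNAs of its library. Fewer cells with a miRNA and less of it in each cell cannot be told apart. Of the epithelial markers, miR-200b-3p had from 139 to 356 reads, whereas miR-205-5p had from 0 to 2 and miR-141-3p from 1 to 8. The blood marker miR-223-3p had 0 reads in all 6 libraries, and 4 blood markers together had from 0 to 9. Of 4 markers of other tissues, miR-122-5p had from 1 to 14 reads, and the set together had from 4 to 16. These counts overlap those of the lowest members, such as hsa-miR-660-5p with 4 to 19 reads.

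As a whole the cluster was a small part of the miRNA reads, from 0.0398% to 0.0543% of a library. The summed count of the 8 members was 429, 368 and 252 in A549 cells at 0, 1 and 5 ng/mL. It was 327, 275 and 312 in BEAS-2B cells at the same doses. After scaling, the A549 sums were 446 (405 to 491), 369 (333 to 409) and 293 (258 to 332) normalised counts, an ordered series in which the intervals of control and 5 ng/mL do not meet. The BEAS-2B sums were 252 (225 to 280), 318 (282 to 358) and 306 (273 to 342), with the control lowest and the treated libraries overlapping each other. With this scaling the A549 control sum was 1.77-fold the BEAS-2B control sum and the treated libraries lay between them. As shares of all reads, the 4 treated libraries (0.0398% to 0.0419%) lay below both controls (0.0543% for A549 and 0.0445% for BEAS-2B).

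**Figure D2:**
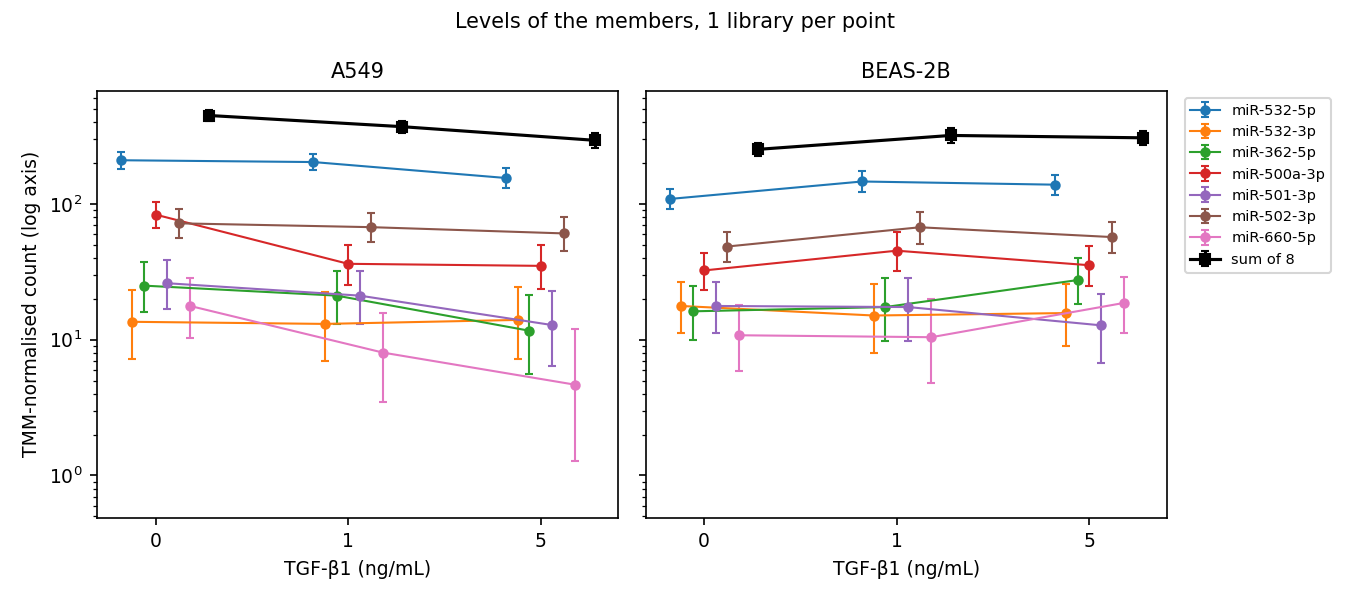
TMM-normalised counts of 7 members and of the sum of 8 (vertical log axis, 95% counting intervals) at 0, 1 and 5 ng/mL TGF-β1 (horizontal axis, evenly spaced groups and not a dose scale) in A549 (left) and BEAS-2B cells (right); points are single libraries, lines join one miRNA, and hsa-miR-362-3p is not drawn. The A549 sum went from 446 to 293 and the BEAS-2B sum from 252 to 306, but the BEAS-2B direction turns under total-count scaling and in unscaled counts.

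The 5p arm of the first hairpin, hsa-miR-532-5p, was the most abundant member, with a mean of 160 normalised counts and rank 153 among the 2588 miRNAs. It had 201, 202 and 133 reads in A549 cells at 0, 1 and 5 ng/mL, or 209, 203 and 155 normalised counts. In BEAS-2B cells it had 141, 126 and 141 reads, or 108, 146 and 138 normalised counts. In normalised counts the A549 control and 1 ng/mL libraries were high and the BEAS-2B control was low. In reads the BEAS-2B control was not below the treated BEAS-2B libraries. hsa-miR-502-3p followed with a mean of 62.0 normalised counts, and its levels of 71.8, 67.3 and 60.5 for A549 and 48.5, 67.2 and 56.9 for BEAS-2B cells had overlapping intervals in each line.

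hsa-miR-500a-3p was the member whose A549 ratio to control had an interval below 0 at both doses. It had 80 reads in the A549 control against 36 and 30 at 1 and 5 ng/mL, or 83.2 (66.0 to 104), 36.1 (25.3 to 50.0) and 34.9 (23.6 to 49.8) normalised counts. BEAS-2B cells had 42, 39 and 36 reads, or 32.3, 45.2 and 35.3 normalised counts. The A549 control thus stood above the other 5 libraries, and its interval did not meet that of any of them. hsa-miR-501-3p, of the same near-identical family, was lower, with 26.0, 21.1 and 12.8 normalised counts for A549 and 17.7, 17.4 and 12.7 for BEAS-2B cells.

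The remaining members were near the limit of what these depths resolve. hsa-miR-362-5p had 24, 21 and 10 reads for A549 and 21, 15 and 28 for BEAS-2B cells. hsa-miR-660-5p had 17, 8 and 4 reads for A549 and 14, 9 and 19 for BEAS-2B cells. Both were lowest in A549 cells at 5 ng/mL and highest in BEAS-2B cells at 5 ng/mL. hsa-miR-532-3p stayed between 13.1 and 17.7 normalised counts in all 6 libraries. hsa-miR-362-3p had 1 read in BEAS-2B cells at 5 ng/mL and 0 in the other 5 libraries, and no fold is given for it. The upper limits of the intervals for these counts of 0 were from 2.84 to 4.29 normalised counts, depending on the library. By mean normalised count the order was hsa-miR-532-5p, hsa-miR-502-3p (62.0), hsa-miR-500a-3p (44.5), hsa-miR-362-5p (19.8), hsa-miR-501-3p (18.0), hsa-miR-532-3p (14.8), hsa-miR-660-5p (11.7) and hsa-miR-362-3p (0.163), but not all neighbours were distinct. The intervals of hsa-miR-532-5p and hsa-miR-502-3p were apart in all 6 libraries, those of hsa-miR-502-3p and hsa-miR-500a-3p overlapped in 5 of 6, and those of the 4 members from hsa-miR-362-5p to hsa-miR-660-5p overlapped in all 6.

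The response of A549 cells to TGF-β1 was described first by the sum. Its log2 ratio, the difference of log2(normalised count + 1) between treated and control library, was −0.27 (−0.48 to −0.068) at 1 ng/mL. It was −0.60 (−0.84 to −0.38) at 5 ng/mL, where the level was 0.658-fold the control. The median of the 397 miRNAs with a mean normalised count of at least 10 was 0.017 and 0.077 in the same comparisons. The direction held under 6 scalings, with ratios of the low dose from −0.41 to −0.22 and of the high dose from −0.77 to −0.45. Between the treated libraries, 5 against 1 ng/mL, the ratio was −0.33 (−0.57 to −0.098). The size of this step depended on the scaling: with total counts it was −0.038 (−0.28 to 0.20).

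The A549 ratios at 5 ng/mL were unequal among members. hsa-miR-660-5p had −1.72 (−3.96 to −0.31), from 17 and 4 reads, and hsa-miR-500a-3p had −1.23 (−1.91 to −0.63). hsa-miR-362-5p and hsa-miR-501-3p had −1.04 (−2.33 to 0.016) and −0.97 (−2.19 to 0.052), both with intervals that include 0. hsa-miR-532-5p, which carried about as many reads as all other members together, had −0.43 (−0.76 to −0.11), while hsa-miR-502-3p had −0.24 (−0.79 to 0.29) and hsa-miR-532-3p 0.043 (−1.22 to 1.30). The 2 arms of miR-532 could not be told apart in their ratios at these counts.

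The 1.4-fold threshold of the study was then applied to the 7 members that passed the minimum mean of 10. At 5 ng/mL 4 of 7 were lower (hsa-miR-362-5p, hsa-miR-500a-3p, hsa-miR-501-3p and hsa-miR-660-5p), beside 25.4% of all 397 miRNAs, and 0 of 7 were higher, beside 35.3%. At 1 ng/mL 2 of 7 were lower (hsa-miR-500a-3p and hsa-miR-660-5p), beside 18.9%, and 0 of 7 were higher, beside 28.5%. The lower calls of members held under each scaling, with 4 or 5 at 5 ng/mL and 2 at 1 ng/mL, but the background moved: at 5 ng/mL the lower calls were 19.6% of all with total counts and 33.9% unscaled, and at 1 ng/mL 26.4% and 17.8%. The median of the 7 ratios was −0.97 at 5 ng/mL and −0.23 at 1 ng/mL. At 1 ng/mL hsa-miR-500a-3p already had −1.18 (−1.81 to −0.62), close to its ratio at 5 ng/mL, whereas hsa-miR-532-5p had −0.044 and hsa-miR-502-3p −0.093. From 1 to 5 ng/mL 3 of 7 passed 1.4-fold in either direction (hsa-miR-362-5p, hsa-miR-501-3p and hsa-miR-660-5p, all lower), beside 32.0% of all; here hsa-miR-500a-3p had −0.049 (−0.80 to 0.69) and hsa-miR-532-5p −0.39 (−0.72 to −0.067). Both doses were set against 1 control library, so the comparisons with control are not independent.

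In BEAS-2B cells the sum had a log2 ratio of 0.34 (0.10 to 0.58) at the low dose and 0.28 (0.054 to 0.51) at the high dose, beside medians of 0.045 and 0.053 for all 397 miRNAs. These signs depended on the scaling: with total counts as the scale the ratios were −0.087 and −0.13, and in unscaled counts −0.25 and −0.068. Total-count scaling also moved the median of all 397 miRNAs, by −0.41 and −0.38. Relative to that median, the BEAS-2B sum lay 0.27 to 0.29 above it with the low dose and 0.20 to 0.23 above it with the high dose over 6 scalings, and the A549 sum lay −0.29 and −0.68 from it. The miR-21-5p share of the BEAS-2B control, 35.4% against 53.3% and 57.2% in the treated libraries, moved with this scale. With total counts that leave out miR-21-5p the BEAS-2B sum had 0.38 and 0.46. Without that control, 5 against 1 ng/mL in BEAS-2B cells gave −0.058 (−0.30 to 0.18).

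Single members in BEAS-2B cells mostly had intervals that include 0. The exception at both doses was hsa-miR-532-5p, with 0.42 (0.069 to 0.78) at the low dose and 0.35 (0.00278 to 0.70) at the high dose. With total counts as the scale these ratios were 0.000203 and −0.061. At 5 ng/mL 2 of 7 members were at least 1.4-fold higher (hsa-miR-362-5p, 0.73, and hsa-miR-660-5p, 0.74, both with intervals that include 0), beside 24.7% of all 397, and 0 of 7 were lower, beside 17.1%. At 1 ng/mL 0 of 7 were higher and 0 of 7 lower, beside 22.7% and 17.6%. The calls depended on the scale. With total counts 2 of 7 were lower (hsa-miR-532-3p and hsa-miR-501-3p) and 0 higher at 5 ng/mL, beside 40.6% and 10.6% of all. At 1 ng/mL 1 was then lower and 0 higher, beside 41.1% and 9.82%. From 1 to 5 ng/mL 2 of 7 passed 1.4-fold in either direction (hsa-miR-362-5p and hsa-miR-660-5p, both higher), beside 22.7%. These shares lie near the background and are no result about the members.

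**Figure D3:**
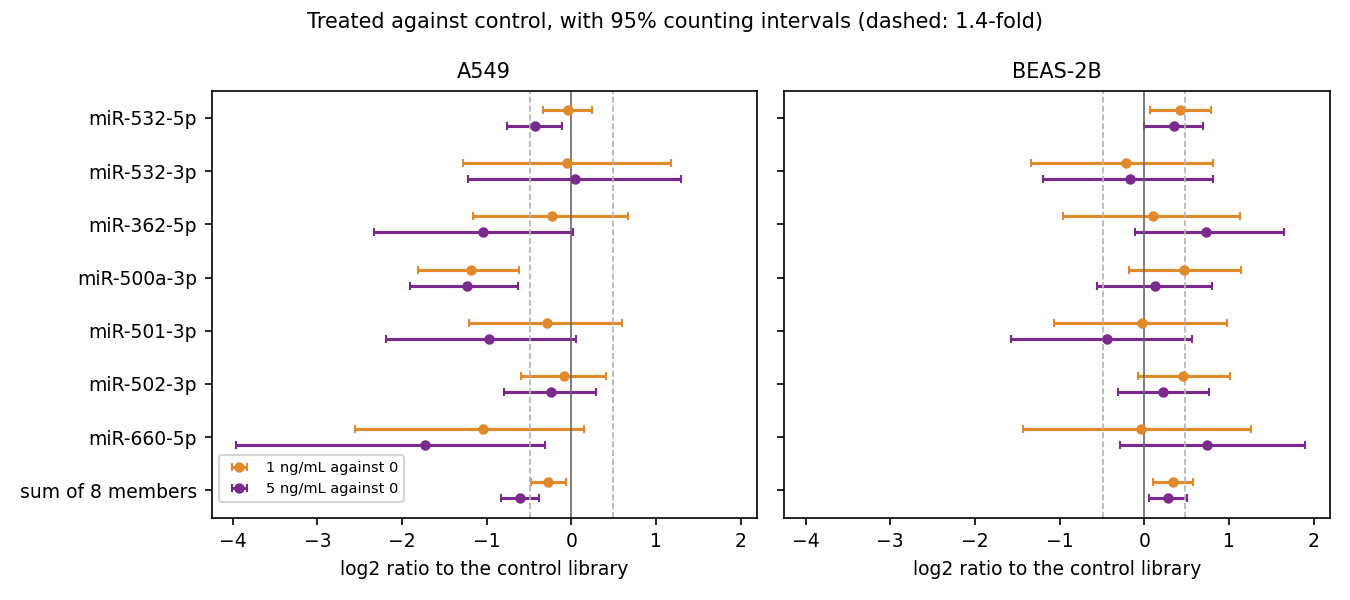
Log2 ratio of treated to control library (horizontal axis) for 7 members and the sum of 8, at 1 and 5 ng/mL, in A549 (left) and BEAS-2B cells (right), with 95% counting intervals and dashed lines at 1.4-fold. hsa-miR-500a-3p lies near −1.2 at both doses in A549 cells; the BEAS-2B sums of 0.34 and 0.28 turn to −0.087 and −0.13 with total counts as the scale.

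The study's own criteria asked, besides 1.4-fold, for a normalised data value (ND) of at least 8. The formula and unit of ND are not given in the sources used here. It was taken as log2 of the normalised count plus 1, so that 8 corresponds to 255 normalised counts in the greater of both libraries. The highest ND of any member was 7.72, for hsa-miR-532-5p in the A549 control, so on this scale 0 of 8 members could pass, although at 5 ng/mL 53.2% of the 141 miRNAs that reached the ND threshold passed in A549 cells, and 36.0% of 125 passed in the BEAS-2B line. On a CPM scale of effective library sizes, an alternative added after the data were seen, hsa-miR-532-5p reached an ND of 8.13 in A549 cells, but its ratio of −0.43 was short of 1.4-fold and 0 members passed in either line.

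**Figure D4:**
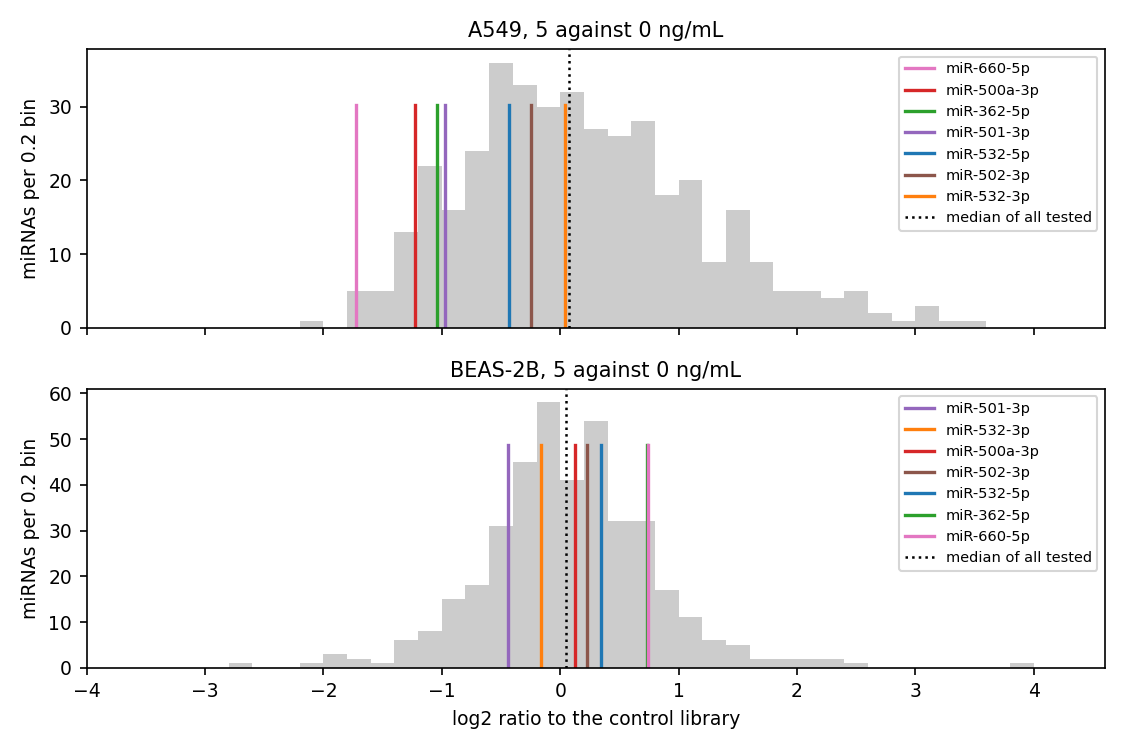
Histogram of the log2 ratio at 5 ng/mL against control (horizontal axis, bins of 0.2) over 397 miRNAs (vertical axis, miRNAs per bin), A549 above and BEAS-2B below; coloured lines are the 7 members and the dotted line is the median of all. In A549 cells the members reach from −1.72 to 0.043 and all lie below the median of 0.077. In BEAS-2B cells they reach from −0.44 to 0.74, on both sides of the median of 0.053, and their position against 0 there depends on the scaling.

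The control libraries differed between the lines. The log2 ratio of A549 to BEAS-2B was 0.83 (0.62 to 1.04) for the sum, 1.34 (0.81 to 1.94) for hsa-miR-500a-3p, 0.94 (0.63 to 1.27) for hsa-miR-532-5p and 0.56 (0.053 to 1.08) for hsa-miR-502-3p. Of the 7 members 6 passed 1.4-fold in either direction, all higher in A549 cells, beside 68.0% of all 397 miRNAs, so most miRNAs differed between the lines by as much. hsa-miR-532-3p was the member with a ratio below 0 (−0.36), with an interval that includes 0. Total-count scaling lowered the ratio of the sum to 0.29. On that scale hsa-miR-500a-3p was still past 1.4-fold higher (0.81), and hsa-miR-532-3p had −0.87. Short of 1.4-fold were hsa-miR-532-5p (0.41), hsa-miR-362-5p (0.086), hsa-miR-501-3p (0.017), hsa-miR-502-3p (0.028) and hsa-miR-660-5p (0.17). The count of members past 1.4-fold between the controls thus depended on the scaling.

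The difference between the responses of the lines was given for the sum as the A549 log2 ratio minus the BEAS-2B log2 ratio, with a normal interval from the counts. It was −0.61 (−0.92 to −0.30) for the low dose and −0.89 (−1.20 to −0.57) for the high dose. Over 6 scalings the first ranged from −0.68 to 0.028 and the second from −1.07 to −0.32. hsa-miR-500a-3p had −1.65 (−2.50 to −0.80) and −1.35 (−2.24 to −0.47), and ranged from −1.72 to −1.03 and from −1.54 to −0.80 over the scalings. hsa-miR-660-5p had −2.46 (−4.32 to −0.60) at 5 ng/mL, from 4 to 19 reads per library. These intervals leave out the spread between cultures, which was not measured.

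Shares within the cluster are free of the scale between libraries. hsa-miR-532-5p made up 46.9%, 54.9% and 52.8% of the members' A549 reads and 43.1%, 45.8% and 45.2% of their BEAS-2B reads. hsa-miR-500a-3p made up 18.6% (15.1% to 22.7%, exact binomial) of 429 reads in the A549 control, but 9.78% (6.95% to 13.3%) and 11.9% (8.18% to 16.6%) at 1 and 5 ng/mL. In BEAS-2B cells its share was 12.8%, 14.2% and 11.5%, close to that of the treated A549 libraries. The A549 control had the highest share, with an interval apart from that of A549 cells at 1 ng/mL and overlapping those of the other 4 libraries.

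Of the reads given to hsa-miR-500a-3p or its near-identical neighbour hsa-miR-502-3p, 53.7% (45.3% to 61.9%) of 149 went to hsa-miR-500a-3p in the A549 control. At 1 and 5 ng/mL it was 35.0% (25.8% to 45.0%) of 103 and 36.6% (26.2% to 48.0%) of 82, and in BEAS-2B cells 40.0%, 40.2% and 38.3%. The A549 control was again highest, and its interval was apart from that of A549 cells at 1 ng/mL alone. This pair was set side by side after its values were seen. Summed over hsa-miR-500a-3p, hsa-miR-501-3p and hsa-miR-502-3p, a total that does not depend on how reads were split among them unless some were dropped or counted more than once, the A549 log2 ratio was −0.54 (−0.88 to −0.20) for the low and −0.74 (−1.12 to −0.37) for the high dose. The sum of the other members had −0.11 (−0.37 to 0.14), an interval that includes 0, and −0.52 (−0.81 to −0.23).

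**Figure D5:**
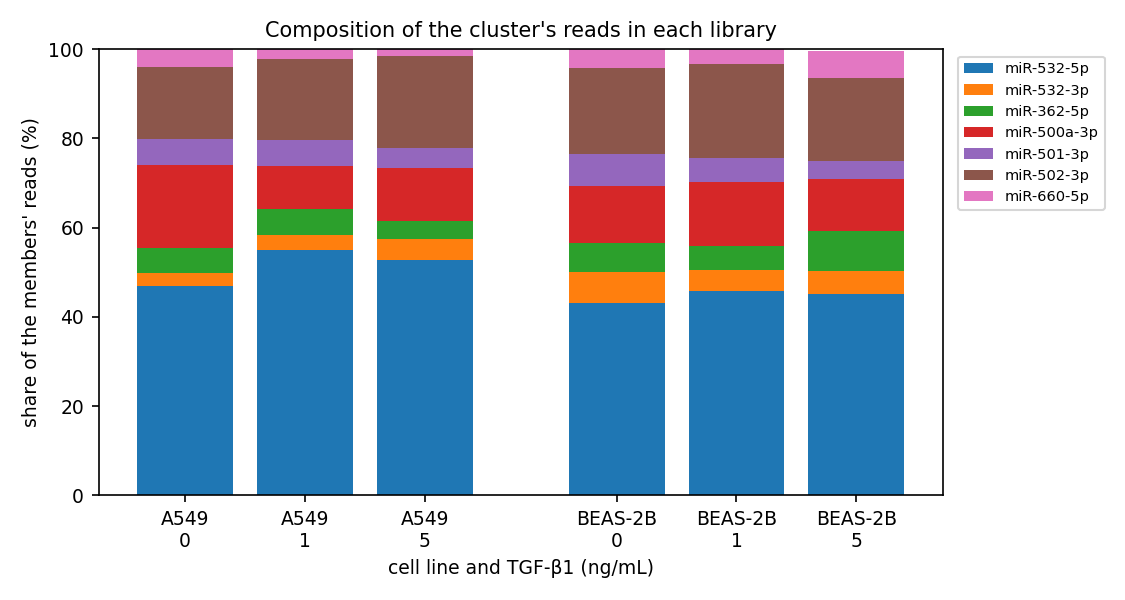
Share of each member in the members' reads (vertical axis, %) in each library (horizontal axis, cell line and TGF-β1 in ng/mL); the single read of hsa-miR-362-3p in BEAS-2B cells at 5 ng/mL is not drawn. hsa-miR-500a-3p took 18.6% in the A549 control and between 9.78% and 14.2% in the other 5 libraries.

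The arm that dominated each hairpin was not the same along the cluster. The 5p arm held 91.3% of 1034 reads of miR-532, 99.2% of 120 of miR-362 and 93.4% of 76 of miR-660. The 3p arm prevailed in the near-identical family, where 5p held 12.0% of 299 reads of miR-500a, 10.7% of 121 of miR-501 and 0.811% of 370 of miR-502. For miR-532 the 5p share was 93.9%, 94.0% and 91.7% for A549 and 86.0%, 90.6% and 89.8% for BEAS-2B cells. The BEAS-2B control, at 86.0% (79.7% to 90.9%), was lowest and its interval met those of the other libraries.

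The 8 arms of these hairpins outside the list had few reads over the 6 libraries: 36 for miR-500a-5p, 13 for miR-501-5p, 5 for miR-660-3p, 3 each for miR-188-5p and miR-502-5p, 1 for miR-500b-3p and 0 for miR-188-3p and miR-500b-5p. The split between miR-500a-5p and miR-500b-5p is uncertain, because both lie in the run that their hairpins share. Adding the 8 arms to the sum gave A549 log2 ratios of −0.28 and −0.59 at 1 and 5 ng/mL, close to those of the 8 members.

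Outside the cluster, the 5 miRNAs whose centred log2 levels lay closest to those of the sum over the 6 libraries, among 184 with a mean of at least 100 normalised counts, were miR-339-3p, miR-769-5p, miR-101-3p, miR-7-5p and miR-3529-3p. Their root mean square differences from the sum were 0.143, 0.168, 0.184, 0.201 and 0.201. MIR3529 lies on the opposite strand of MIR7-2, and whether strand was used in counting is not given in the sources used here, so the counts of the last 2 names are uncertain. Their A549 log2 ratios at 5 ng/mL were −0.25, −0.98, −0.77, −0.19 and −0.25 in that order, beside −0.60 for the sum. At 1 ng/mL they were −0.19, −0.16, 0.068, 0.31 and 0.31, so that 3 of the 5 had the opposite sign to the sum (−0.27).

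Other X-chromosome clusters were set beside it. The sum over miR-424, miR-503, miR-542 and miR-450 had, at 1 and 5 ng/mL, A549 log2 ratios of −0.36 and −0.63 and BEAS-2B log2 ratios of 0.21 and 0.23. For miR-374, miR-545 and miR-421 the A549 ratios were −0.62 and −1.34 and the BEAS-2B ratios 0.30 and 0.38. With total counts as the scale the BEAS-2B ratios of both clusters turned, to −0.22 and −0.18 for the first and −0.12 and −0.033 for the second, while the A549 ratios stayed below 0. These clusters share the control library with the sum of the CLCN5 members (A549 −0.27 and −0.60, BEAS-2B 0.34 and 0.28), and no test compared them. Of 4 mesenchymal markers miR-143-3p and miR-145-5p moved with treatment. The 4 had summed counts of 154, 1728 and 1155 for A549 and 10, 68 and 106 for BEAS-2B cells, with miR-214-3p at 0 throughout and miR-199a-5p between 0 and 3, and their part in the result was not tested. The epithelial list summed to 228, 386 and 346 normalised counts for A549 and 363, 344 and 325 for BEAS-2B cells. In each library 5 or 6 of its 6 members had at least 1 read, but miR-205-5p had at most 2 and miR-141-3p at most 8. The largest part came from miR-200b-3p.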

How the data were processed

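Small RNA was sequenced in 6 libraries from total RNA, with line and dose read from the labels. The authors deposited unnormalised whole-number read counts for each mature miRNA. The submitters' processing notes name Bowtie2 and bedtools; genome build, miRNA annotation, strand use, mismatches and the handling of reads that match several miRNAs are not given in the sources used here. PCR reads without molecular identifiers are not independent molecules.

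TMM factors over 6 libraries were computed with edgeR 4.0.16 in R 4.3.3, and normalised counts were scaled to the mean effective library size of 749498. A pseudocount of 1 was added before log2. Ratio intervals were exact Clopper-Pearson intervals of the conditional binomial share, levels had exact Poisson and shares exact binomial intervals, all at 95%. With 1 library per group no test was run. Total counts of 633318 to 900424 set the precision. Alternatives were DESeq2 1.42.0 size factors, total counts with and without miR-21-5p, TMM within each line, unscaled counts, pseudocounts, minimums, folds and other sums. The procedure was run on simulated counts with counting error alone, in which 200 of 396 miRNAs were changed 2-fold in the library for A549 at 5 ng/mL. The intervals held the true value for 93.2% of miRNAs, and 90.5% of the changed ones passed 1.4-fold. The simulation had no spread between cultures and the same miRNA shares in all libraries before the change, so it cannot judge the choice of scaling. Intervals were computed in Python 3.11.15 (scipy 1.17.1, pandas 2.3.3, numpy 2.4.6).

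The members, the lists and the rule for named miRNAs were chosen with earlier results of these data known. The rule named the 8 members, the 8 other arms of their hairpins, the 5 miRNAs closest to the sum, a pair of other X-chromosome clusters by their sums, and miR-21-5p; markers came from 4 listed sets.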

Additional observations from a re-analysis of the deposited data

Results flagged for a closer look

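With TMM scaling, for 4 members and for the sum of all 8, both treated A549 libraries lay below their control and both treated BEAS-2B libraries lay above theirs. The share of all miRNAs with this pattern was not counted, so the number of members is no result about them. The sums of both other X-chromosome clusters given above had the same signs. The difference between the lines was not tested, and the pattern rests on the scaling. With total counts the sum and each of the 4 members had a BEAS-2B ratio below 0 at 1 dose or more: hsa-miR-532-5p −0.061, hsa-miR-500a-3p −0.28 and hsa-miR-502-3p −0.18 at 5 ng/mL, hsa-miR-362-5p −0.31 at 1 ng/mL, and the sum −0.13 and −0.087 at 5 and 1 ng/mL. As A549 minus BEAS-2B log2 ratio at 5 ng/mL, the sum of 8 members had −0.89 (A549 −0.60, BEAS-2B 0.28). hsa-miR-362-5p had −1.77 (A549 −1.04, BEAS-2B 0.73). hsa-miR-500a-3p had −1.35 (A549 −1.23, BEAS-2B 0.12). hsa-miR-532-5p had −0.78 (A549 −0.43, BEAS-2B 0.35). hsa-miR-502-3p had −0.47 (A549 −0.24, BEAS-2B 0.23), with a counting interval from −1.20 to 0.26 that includes 0.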

How the results depend on the processing

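The log2 ratio of the sum was recomputed 64 times over 7 comparisons, and 52 values lay within the counting interval of the main value. With total counts as the scale the sign turned in BEAS-2B cells, to −0.13 at 5 ng/mL and −0.087 at 1 ng/mL; 5 against 1 ng/mL in A549 cells was then −0.038 and the controls differed by 0.29. Unscaled counts turned the BEAS-2B ratios to −0.068 and −0.25, gave 0.18 between the treated BEAS-2B libraries and 0.39 between the controls. The ratio of hsa-miR-532-5p in BEAS-2B cells turned to −0.061 with total counts (high dose) and to −0.16 unscaled (low dose). The median of the members in place of the sum gave −0.97 in A549 cells at 5 ng/mL, 0.099 in BEAS-2B cells at 1 ng/mL and 0.60 between the controls. Without hsa-miR-532-5p the sum had −0.51 in A549 cells at 1 ng/mL. Without the 3 near-identical arms it had −0.11 (−0.37 to 0.14) there, so the interval of the low-dose decline then included 0. By construction the median weights the 7 members equally, and the sum without hsa-miR-532-5p gives more weight to the members that remain. In A549 cells from 0 to 1 ng/mL that sum went from 237 to 167 normalised counts, and hsa-miR-500a-3p within it from 83.2 to 36.1. For the scalings, the cause was not tested beyond the shift of all miRNAs given above.

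Of 36 recomputed counts of members past 1.4-fold, 26 stayed within 1.5 times the main count and kept their direction. In BEAS-2B cells at 5 ng/mL, total counts and unscaled counts each gave 0 higher calls and 2 lower calls, of other members. hsa-miR-362-5p and hsa-miR-660-5p stayed above 0 there (0.34 and 0.36 with total counts, 0.40 and 0.42 unscaled) but fell short of 1.4-fold. The lower calls were hsa-miR-532-3p (−0.56 and −0.50) and hsa-miR-501-3p (−0.84 and −0.78). A counting interval that excludes 0 left 1 member in A549 cells at 1 ng/mL and gave 1 in BEAS-2B cells at each dose. In BEAS-2B cells at 5 ng/mL a fold of at least 2 left 0 and a pseudocount of 10 left 1. At 1 ng/mL there, total counts gave 1 lower, unscaled counts 3 lower, and total counts without miR-21-5p 2 higher. Of 238 recomputed ratios of single members 230 lay within the counting interval of the main value. That interval is wide for low members, so staying within it does not show a stable sign. At 5 ng/mL hsa-miR-532-3p ranged from −0.11 to 0.19 in A549 cells over the scalings. In BEAS-2B cells hsa-miR-500a-3p ranged from −0.28 to 0.30 and hsa-miR-502-3p from −0.18 to 0.40. All miRNAs past 1.4-fold at 5 ng/mL were 241 in A549 (101 lower, 140 higher) and 166 in BEAS-2B cells (68 lower, 98 higher). With no minimum they were 861 and 766 (392 of the latter lower, a slight majority), and with a minimum of 100 they were 97 (49 lower, 48 higher) and 63. In A549 cells the balance was 78 lower and 166 higher with total counts and 135 and 124 of 259 unscaled. In BEAS-2B cells it was 161 and 42 of 203 with total counts, 145 and 46 of 191 unscaled, 90 and 82 of 172 with DESeq2 size factors, and 47 and 125 with total counts without miR-21-5p.

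No paired analysis was possible because each group had 1 library and the labels carry no replicate numbers. Leaving out a replicate was likewise not run. Depth limits hsa-miR-660-5p, hsa-miR-362-5p, hsa-miR-501-3p and hsa-miR-532-3p, each with at most 28 reads in a library.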
